A study of Mus musculus with 6 samples.

Results

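Interferon-stimulated genes are described here in mouse fetal liver erythroblasts exposed to carbon dots. The set was a list of 38 symbols, matched to the table by gene symbol. Of these, 36 were in the table of 17691 genes, and all 36 passed the filter on low counts that left 12283 genes for testing. Mx1 and Mx2 were on the list and were not analysed here. The erythroblasts were the TER119-negative cells of C57BL/6J fetal livers, that is, cells not yet carrying the surface marker of late erythroid stages, and they were kept in medium with erythropoietin (Epo), the hormone that sustains red cell precursors. The CDs group (3 libraries, numbered 1 to 3) received carbon dots, small carbon nanoparticles made from the herb Codonopsis pilosula, at 1 ug/ml for 30 h. The untreated group (3 libraries, also numbered 1 to 3) had the same culture without carbon dots. The comparison asks what carbon dots do to the transcriptome of these cells. The labels do not say whether the libraries of a group came from separate cultures, so the p-values reflect only how these 6 samples vary, and that variation may be technical.

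Type I interferons bind a receptor on the cell surface and, through Janus kinases, activate a complex that holds STAT2 and IRF9 and binds interferon-stimulated response elements in promoters. The genes so induced include sensors of foreign RNA, the transcription factors of the pathway itself, the ubiquitin-like protein ISG15 with its enzymes, and effectors that block viral replication. Macrophages, which in fetal liver surround and support maturing erythroblasts, express many of these genes without any infection. Csf1r, the receptor for the macrophage growth factor CSF1, is a standard macrophage gene, and its level in each library is set beside the interferon-stimulated genes below.

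Promoter stretches of 8 members, with at least 1 from each of the main roles below, show the response element where it was found. They were taken from the members with a match. The sequences are from RefSeq on GRCm38.p6, read 5′ to 3′ on the strand of the gene, and capitals mark matches to GAAANNGAAA or its reverse complement TTTCNNTTTC, with overlapping matches merged.
Isg15: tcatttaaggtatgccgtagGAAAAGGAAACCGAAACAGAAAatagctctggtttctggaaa
Trim30a: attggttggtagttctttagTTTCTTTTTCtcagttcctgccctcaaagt
Oas3: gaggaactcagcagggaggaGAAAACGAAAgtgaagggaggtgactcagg
Stat2: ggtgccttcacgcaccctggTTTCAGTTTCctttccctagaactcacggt
Ifit1: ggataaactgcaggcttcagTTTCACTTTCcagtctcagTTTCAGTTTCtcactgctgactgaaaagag
Gbp2: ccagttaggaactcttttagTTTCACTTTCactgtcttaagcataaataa
Rsad2: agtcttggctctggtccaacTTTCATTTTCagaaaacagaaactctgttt
Bst2: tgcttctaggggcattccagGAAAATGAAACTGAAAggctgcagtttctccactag
These stretches lie at chr4:156200855-156200916 on the minus strand for Isg15, chr7:104465200-104465249 on the minus strand for Trim30a, chr5:120777705-120777754 on the minus strand for Oas3, and chr10:128270256-128270305 on the plus strand for Stat2. The others lie at chr19:34640765-34640833 on the plus strand for Ifit1, chr3:142620584-142620633 on the plus strand for Gbp2, chr12:26456543-26456592 on the minus strand for Rsad2, and chr8:71537567-71537622 on the minus strand for Bst2. Each lay upstream of the annotated span of its gene.

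RefSeq gave a window of 250 bases before and 50 bases after the gene start for 30 of the 36 members. The motif, searched on both strands, was in a window of 15 of these 30 members (50.0%), against 1079 of the 27025 genes with a window (3.99%). The Isg15 stretch held 3 overlapping matches, and those of Ifit1 and Bst2 held 2 each. The other windows with a match belonged to Ifit3, Ifih1, Ddx58, Oas1a, Ifitm3, Eif2ak2 and Gbp3. A match describes these letters only and is not a measured binding site. Members with a match had a median log2 fold change, CDs over untreated, of 0.23, and members with a window and no match had a median of 0.11. With the macrophage score described below as a covariate, the medians were -0.55 with a match and -0.46 without.

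Libraries held 17695997 to 20066581 expected counts. Erythroid markers, among them globin genes, Alas2 and Gata1, summed to 71188, 72845 and 57290 CPM (counts scaled to a common library total) in CDs libraries 1, 2 and 3, and to 73881, 72661 and 61939 CPM in untreated libraries 1, 2 and 3, with all 12 listed markers tested. Globin genes dominate these sums, which hide larger falls in other markers. Klf1 had 694, 590 and 285 CPM in CDs libraries 1, 2 and 3, and 735, 689 and 388 CPM in untreated libraries 1, 2 and 3. The 24 listed macrophage markers summed to 590, 2396 and 8532 CPM in CDs libraries 1, 2 and 3, and to 253, 725 and 6524 CPM in untreated libraries 1, 2 and 3. Of these markers 20 passed the filter. The listed macrophage genes Clec4f, Timd4 and Vsig4 did not pass, with at most 0.289 CPM in any library and 0 in at least 1 library each. Cd163 did not pass either, with at most 0.343 CPM. Granulocyte markers summed to 386, 1292 and 2156 CPM in CDs libraries, against 271, 850 and 2091 CPM in untreated libraries. Of 8 plasmacytoid dendritic cell markers, Siglech, Cox6a2, Pacsin1 and Klk1 were at 0 in at least 1 library, and the list summed to 146 to 200 CPM in CDs libraries and to 157 to 208 CPM in untreated libraries. That sum mixes opposite patterns, since Bcl11a had 125, 104 and 53.5 CPM in CDs libraries 1, 2 and 3 and 143, 140 and 90.2 CPM in untreated libraries 1, 2 and 3, while Irf8 and Tcf4 were highest in the libraries numbered 3. In these bulk samples, fewer cells of a type and less RNA per cell cannot be told apart.

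The interferon-stimulated genes followed the number of the library far more than the treatment. Together the 36 members took 1720, 3671 and 9816 CPM in CDs libraries 1, 2 and 3, and 1687, 2738 and 9375 CPM in untreated libraries 1, 2 and 3. These sums are 0.170%, 0.365% and 1.02% of the counts in CDs libraries, and 0.164%, 0.269% and 0.956% in untreated libraries. In both groups, each of the 36 members was lowest in the library numbered 1 and highest in the library numbered 3, an arrangement that 27.9% of all tested genes had, and that the 20 macrophage markers had too. The number 3 library exceeded the number 1 library by a median of 2.99 on the log2 scale over the members in the CDs group (0.58 to 5.07), and by a median of 2.99 in the untreated group (0.51 to 6.10). The macrophage gene Csf1r lay at 82.5, 291 and 784 CPM in CDs libraries 1, 2 and 3, and at 28.0, 74.3 and 571 CPM in untreated libraries 1, 2 and 3. The part of macrophage RNA in the levels of the members was not tested.

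**Figure D1:**
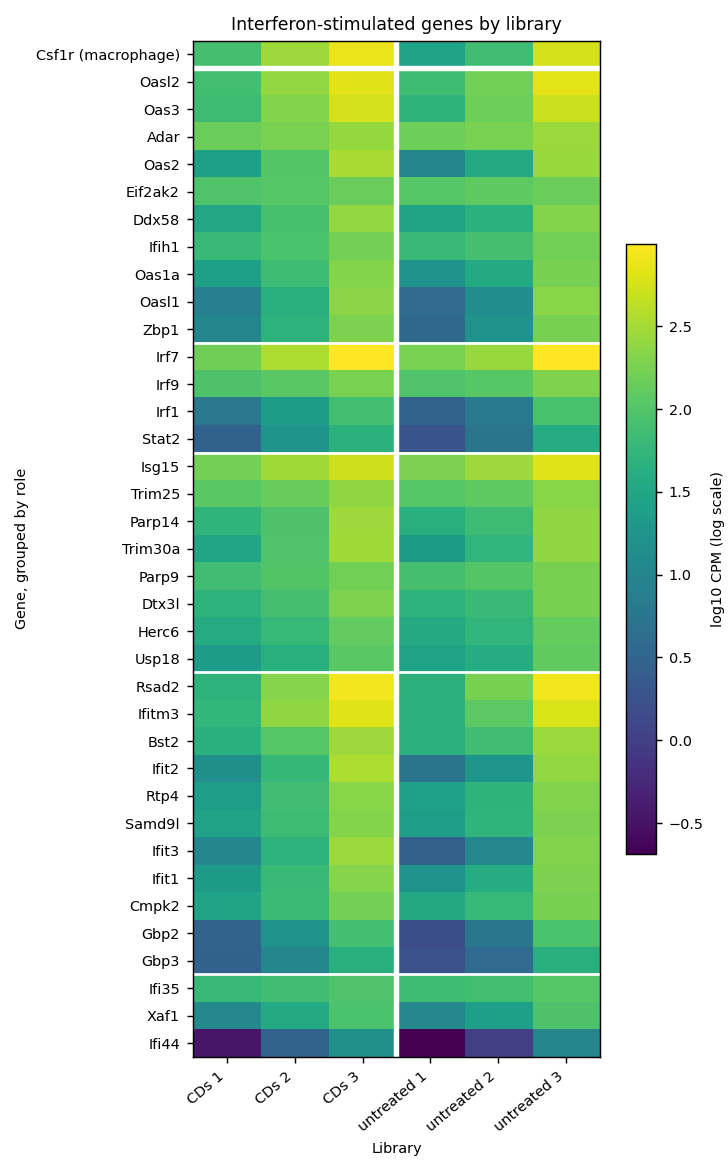
Heat map of the level of Csf1r (top row) and of the 36 interferon-stimulated genes, grouped by role, in the 6 libraries, with the CDs libraries left of the untreated ones and colour giving log10 CPM. In both groups every member is darkest in library 1 and brightest in library 3.

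No member passed the test between CDs and untreated cells. With edgeR's quasi-likelihood test and no other term, 0 of the 36 members had an adjusted p under 0.05, and 0.0% of all 12283 genes did. Of the members, 0 had an unadjusted p under 0.05, against 127 of all genes, and the smallest unadjusted p of a member was 0.615. In counts simulated with same-numbered libraries alike, this test found 0 of 100 genes changed 2-fold and 46 of 100 changed 4-fold. With a term for the number, edgeR found 100 of 100 at either fold there, with 10 false calls among the unchanged genes. A lack of calls without that term is thus not evidence of a lack of change. The simulation gave all genes a single dispersion and each changed gene the same fold in every pair. It therefore does not measure how often edgeR with that term would find a change in these libraries. DESeq2 and limma-voom without a term for the number also called 0 members, with 14 genes (0.114%) called by DESeq2. The fitted log2 fold change, CDs over untreated, was above 0 for 28 members, as it was for 51.9% of all genes, and its median was 0.16 over the members and 0.01 over all genes. It lay between -0.19 for Isg15 and 0.73 for Ifi44. The groups overlapped for all 36 members, where 2.37% of all genes had every CDs library above every untreated one and 2.33% every CDs library below. Leaving out CDs library 3 moved the median of the members to -0.81 with 0 members above 0, and leaving out untreated library 3 moved it to 1.45 with 36 above 0.

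Comparing libraries of the same number removed most of that spread, and most members, like most genes, then differed less than Csf1r. The median log2 difference of the members, CDs minus untreated, was 0.12 in pair 1, 0.56 in pair 2 and 0.06 in pair 3. For Csf1r it was 1.56, 1.97 and 0.46 in pairs 1, 2 and 3, and the median of the 20 macrophage markers was 1.43, 2.01 and 0.50. Over all tested genes the medians were 0.04, 0.00 and 0.00. As sums, the members stood 1.02-fold, 1.34-fold and 1.05-fold higher in the CDs library of pairs 1, 2 and 3, where Csf1r stood 2.95-fold, 3.92-fold and 1.37-fold higher. The log2 difference was above 0 for 23 members in pair 1, 33 in pair 2 and 22 in pair 3, against 56.3%, 49.7% and 49.6% of all genes. In all 3 pairs, 19 members were higher in the CDs library (30.2% of all genes were), 3 were lower (26.2% of all genes) and 14 were mixed. The 3 lower members were Parp9, Eif2ak2 and Ifi35. The difference of a member was below that of Csf1r for 35, 35 and 33 of the 36 members in pairs 1, 2 and 3, and below it for 98.6%, 98.2% and 89.7% of all genes, so the share among the members was near the background. Of the 20 macrophage markers, 14, 9 and 8 lay below Csf1r.

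**Figure D2:**
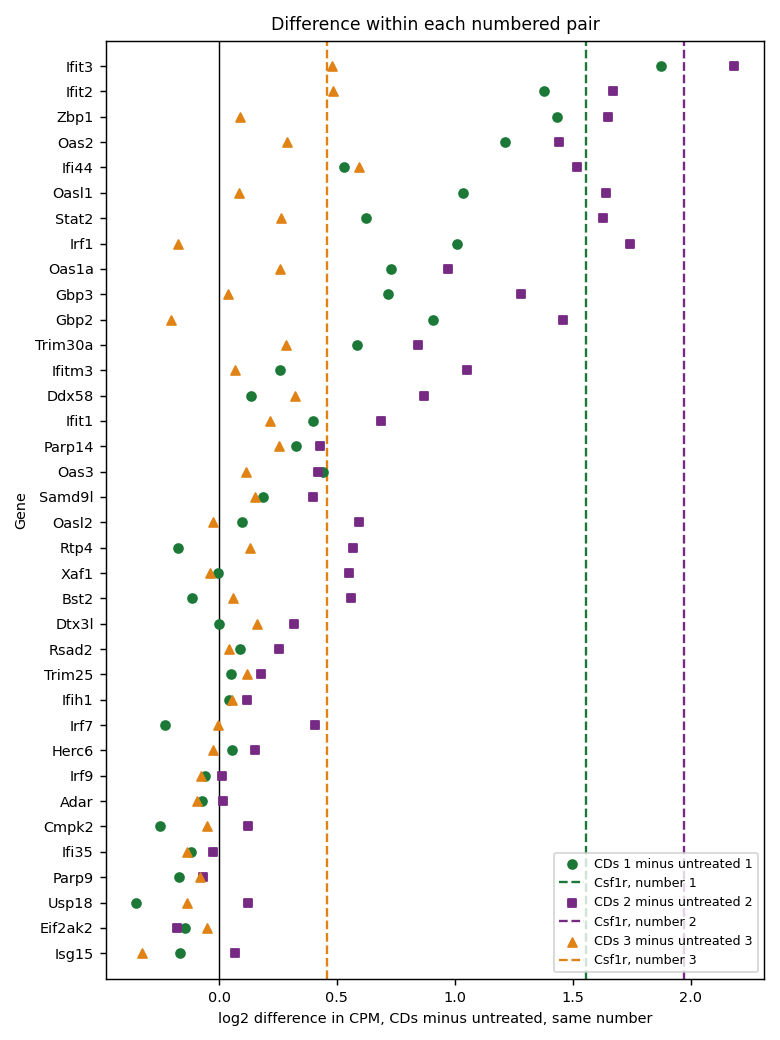
Log2 difference in CPM, CDs minus untreated, of each member in each same-numbered pair (1 point per pair), with dashed lines at the difference of Csf1r in the pair of the same colour, 1.56, 1.97 and 0.46 in pairs 1, 2 and 3. Most points lie left of the line of their colour, and Ifit3 is right of it in all 3 pairs.

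Relative to Csf1r, the summed level of the members was lower in each CDs library than in the untreated library of its number, as follows for any gene whose pair difference is below that of Csf1r, the case for 98.6%, 98.2% and 89.7% of all genes. The sum per CPM of Csf1r was 20.9, 12.6 and 12.5 in CDs libraries 1, 2 and 3, against 60.4, 36.9 and 16.4 in untreated libraries 1, 2 and 3. The CDs library thus held 0.346, 0.342 and 0.763 times the ratio of the untreated library in pairs 1, 2 and 3. This ratio averaged 15.3 ± 4.79 in CDs libraries and 37.9 ± 22.0 in untreated libraries (SD, n = 3 each), and the groups overlapped. Isg15 alone stood at 2.02, 1.02 and 0.666 per CPM of Csf1r in CDs libraries 1, 2 and 3, and at 6.68, 3.82 and 1.15 in untreated libraries 1, 2 and 3.

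With the library number as a block, DESeq2 called members higher in CDs cells, and edgeR and limma-voom did not. That fit called 7 of the 36 members higher and 0 lower, where it called 7.76% of all genes higher and 2.09% lower, and 18 of the 20 macrophage markers higher. The 7 were Ifit1, Ifit2, Ifit3, Oas1a, Oas2, Trim30a and Parp14. edgeR with the same block called 0 members at an adjusted p under 0.05, where it called 5 genes (0.0407%). In that edgeR fit 11 of the 36 members had an unadjusted p under 0.05, against 3667 of all 12283 genes, so the members were near the background. An adjusted p under 0.10 was found for 3 members (Trim30a, Parp14 and Ifit1), and for 8.3% of all genes. limma-voom with the block called 6 genes and 0 members. Csf1r had a log2 fold change of 1.32 ± 0.33 (SE) with an adjusted p of 0.111 in edgeR with the block, and an adjusted p of 0.0255 in DESeq2 with the block.

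The sensors of foreign RNA and the enzymes that act on double-stranded RNA numbered 10, of which 8 had a log2 fold change above 0, with a median of 0.23. Their medians by pair were 0.29, 0.73 and 0.09. Ifih1, which encodes the RNA sensor MDA5, had 65.2, 89.3 and 171 CPM in CDs libraries 1, 2 and 3, and 63.3, 82.4 and 164 CPM in untreated libraries 1, 2 and 3. Ddx58, which encodes the sensor RIG-I, had 31.8, 83.6 and 253 CPM in CDs libraries, against 29.0, 45.8 and 203 CPM in untreated libraries. Both sensors were higher in the CDs library of each pair, Ifih1 by at most 0.12 on the log2 scale and Ddx58 by 0.13, 0.87 and 0.32 in pairs 1, 2 and 3, and the groups overlapped. Zbp1, a sensor of Z-form nucleic acids, had 10.1, 48.8 and 184 CPM in CDs libraries and 3.67, 15.5 and 173 CPM in untreated libraries. Its difference lay in libraries 1 and 2, with 1.43 and 1.65 on the log2 scale, and was 0.09 in pair 3. Eif2ak2, the kinase PKR, had 95.3, 107 and 144 CPM in CDs libraries, against 105, 120 and 149 CPM in untreated libraries. Adar, an enzyme that edits adenosines in double-stranded RNA, had 147, 181 and 262 CPM in CDs libraries, against 154, 179.5 and 279 CPM in untreated libraries. These were the least variable of the sensors, with a highest library 1.57-fold above the lowest for Eif2ak2 and 1.90-fold for Adar.

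The OAS enzymes make the messenger that activates RNase L, the nuclease that degrades viral and cellular RNA. Oas1a had 25.5, 71.6 and 207 CPM in CDs libraries 1, 2 and 3, and 15.3, 36.5 and 173 CPM in untreated libraries 1, 2 and 3. Oas2 had 25.5, 101 and 329 CPM in CDs libraries, against 11.0, 37.2 and 269.8 CPM in untreated libraries. Both were higher in the CDs library of every pair. In DESeq2 with the block, Oas1a rose by 0.63 ± 0.17 on the log2 scale (SE, adjusted p = 0.00495, and 0.00495 to 1.00 over the alternatives). Oas2 rose by 0.96 ± 0.23 in that DESeq2 fit (adjusted p = 0.000978, and 0.000978 to 1.00 over the alternatives). Oas3 had 69.4, 202 and 550 CPM in CDs libraries and 51.1, 151 and 508 CPM in untreated libraries. The relatives Oasl1 and Oasl2 carry a ubiquitin-like tail. Oasl1 had 8.24, 41.5 and 231 CPM in CDs libraries, against 3.98, 13.3 and 218 CPM in untreated libraries. Oasl2 had 76.2, 248 and 683 CPM in CDs libraries, against 71.2, 164 and 695 CPM in untreated libraries. For both relatives the libraries numbered 3 lay close together, with log2 differences of 0.09 and -0.02. Reads of Oas1a and of its near-identical relatives may have been split between them by the counting, so its level is uncertain.

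The 4 transcription factors had a median log2 fold change of 0.10, with 3 above 0 and pair medians of 0.28, 1.02 and -0.04. Stat2, which carries the activation domain of the interferon complex, had 2.92, 16.8 and 47.3 CPM in CDs libraries 1, 2 and 3, and 1.86, 5.37 and 39.4 CPM in untreated libraries 1, 2 and 3. Irf1, which interferon gamma also induces, had 6.24, 22.3 and 76.1 CPM in CDs libraries, against 3.05, 6.60 and 85.8 CPM in untreated libraries. Stat2 was higher in CDs libraries 1, 2 and 3 than in their pairs, while Irf1 was lower in CDs library 3 than in untreated library 3. Irf7, the regulator that amplifies interferon production, had 156, 354 and 992 CPM in CDs libraries and 183, 267 and 994 CPM in untreated libraries. Irf9, the DNA-binding member of the complex, had 92.2, 113 and 181 CPM in CDs libraries, against 96.0, 112 and 191 CPM in untreated libraries. Irf7 and Irf9 had pair differences on both sides of 0. None of the 4 was called in any of the fits without the macrophage score described below.

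ISG15 and the enzymes of ubiquitin and ADP-ribose modification formed 8 members, 5 of them above 0, with a median log2 fold change of 0.08. Isg15, the ubiquitin-like modifier, had 167, 297 and 522 CPM in CDs libraries 1, 2 and 3, and 187, 283 and 655 CPM in untreated libraries 1, 2 and 3. Usp18, the protease that removes ISG15, had 21.7, 42.8 and 113 CPM in CDs libraries, against 27.7, 39.3 and 124 CPM in untreated libraries. Both were lower in CDs libraries 1 and 3 and slightly higher in CDs library 2 than in their pairs. Herc6, the ligase that attaches ISG15 in mouse, had 38.6, 60.9 and 131 CPM in CDs libraries and 37.1, 54.8 and 133 CPM in untreated libraries. Trim25, a ubiquitin ligase that acts on RIG-I, had 112, 138 and 243 CPM in CDs libraries, against 108, 122 and 223 CPM in untreated libraries. Trim30a, another ligase of the TRIM family, had 31.7, 97.3 and 298 CPM in CDs libraries, against 21.1, 54.2 and 244 CPM in untreated libraries. Trim30a was higher in the CDs library of every pair by 0.28 or more on the log2 scale. It rose by 0.55 ± 0.15 in DESeq2 with the block (SE, adjusted p = 0.00402, and 0.00402 to 1.00 over the alternatives). Parp9 and Dtx3l encode partners in one ubiquitin ligase complex. Parp9 had 73.5, 99.2 and 166 CPM in CDs libraries and 82.7, 104 and 175 CPM in untreated libraries. Dtx3l had 50.4, 81.5 and 195 CPM in CDs libraries and 50.4, 65.4 and 175 CPM in untreated libraries. The annotated spans of Parp9 and Dtx3l overlap, and with no strand marked in the protocol reads from the shared part cannot be assigned with certainty. Parp14, an ADP-ribosyltransferase of macrophages and lymphocytes, had 52.9, 94.2 and 288 CPM in CDs libraries, against 42.1, 69.9 and 241 CPM in untreated libraries. It rose by 0.32 ± 0.10 in DESeq2 with the block (SE, adjusted p = 0.0272, and 0.0272 to 1.00 over the alternatives).

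The 11 antiviral effectors had a median log2 fold change of 0.21, with 10 above 0 and pair medians of 0.26, 0.69 and 0.07. The IFIT proteins bind foreign RNA and limit its translation. Ifit1 had 21.1, 63.2 and 214 CPM in CDs libraries 1, 2 and 3, and 16.0, 39.2 and 184 CPM in untreated libraries 1, 2 and 3. Ifit2 had 14.2, 58.3 and 352 CPM in CDs libraries, against 5.42, 18.3 and 252 CPM in untreated libraries. Ifit3 had 10.5, 50.4 and 276 CPM in CDs libraries, against 2.79, 11.0 and 198 CPM in untreated libraries. All 3 were higher in the CDs library of every pair, and Ifit3 had the widest range of all members, with its highest library 99.0-fold above its lowest. In DESeq2 with the block, Ifit1 rose by 0.41 ± 0.14 (SE, adjusted p = 0.0349, and 0.0349 to 1.00 over the alternatives). Ifit2 rose by 1.15 ± 0.23 in that DESeq2 fit (adjusted p = 9.32e-05, and 9.32e-05 to 1.00 over the alternatives). Ifit3 rose by 1.51 ± 0.50 in that DESeq2 fit (adjusted p = 0.0305, and 0.0305 to 1.00 over the alternatives). Ifit3, with log2 differences of 1.87, 2.18 and 0.48 in pairs 1, 2 and 3, was the only member above Csf1r in pairs 1 and 2. In pair 3, Ifit2 at 0.48 and Ifi44 at 0.59 lay above it too. The Ifit genes have near copies, and the span of Ifit1 overlaps that of Ifit1bl1, which averaged 38.1 CPM, so their separate levels are uncertain.

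Rsad2, which encodes viperin, an enzyme that makes a chain-terminating nucleotide, had 50.4, 210 and 844 CPM in CDs libraries 1, 2 and 3, and 47.4, 176 and 820 CPM in untreated libraries 1, 2 and 3. Its neighbour Cmpk2, a nucleotide kinase, had 28.7, 66.5 and 168 CPM in CDs libraries, against 34.2, 61.0 and 174 CPM in untreated libraries. Neither gene differed by more than 0.26 on the log2 scale in any pair. Ifitm3, which blocks viral fusion in endosomes, had 57.6, 240 and 655 CPM in CDs libraries and 48.0, 116 and 624 CPM in untreated libraries. Bst2, the tether that holds budding virions, had 45.0, 108 and 291 CPM in CDs libraries and 48.7, 73.3 and 279.6 CPM in untreated libraries. The largest pair difference of both lay in pair 2, with 1.05 for Ifitm3 and 0.56 for Bst2. Samd9l, a translation inhibitor, had 27.5, 68.9 and 209 CPM in CDs libraries, against 24.1, 52.2 and 188 CPM in untreated libraries. Rtp4, a chaperone of receptors that also acts on viral replication, had 23.6, 74.9 and 219 CPM in CDs libraries and 26.6, 50.4 and 200 CPM in untreated libraries. Samd9l was higher in the CDs library of every pair, while Rtp4 was lower in CDs library 1 than in untreated library 1. Gbp2 and Gbp3 encode guanylate-binding GTPases that attack the vacuoles of intracellular pathogens. Gbp2 had 3.09, 16.0 and 77.9 CPM in CDs libraries, against 1.60, 5.78 and 89.6 CPM in untreated libraries. Gbp3 had 2.86, 9.96 and 43.2 CPM in CDs libraries, against 1.71, 4.04 and 42.1 CPM in untreated libraries. Both were higher in CDs libraries 1 and 2 than in their pairs, with log2 differences of 0.91 and 1.46 for Gbp2 and of 0.71 and 1.28 for Gbp3, while in pair 3 the difference was -0.20 for Gbp2 and 0.04 for Gbp3.

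The remaining 3 members were Ifi35, Xaf1 and Ifi44. Ifi35, a partner of the signalling protein NMI, had 65.4, 74.3 and 97.7 CPM in CDs libraries 1, 2 and 3, and 71.1, 75.6 and 107 CPM in untreated libraries 1, 2 and 3. Xaf1, an antagonist of the apoptosis inhibitor XIAP, had 11.3, 36.5 and 90.7 CPM in CDs libraries, against 11.3, 24.9 and 93.1 CPM in untreated libraries. Ifi35 was nearly flat over the libraries, its highest 1.64-fold above its lowest, while Xaf1 spanned 8.26-fold. Ifi44 was the only member with a mean under 5 CPM, and it had 0.343, 3.12 and 14.8 CPM in CDs libraries and 0.207, 1.02 and 9.77 CPM in untreated libraries.

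Per length, the most abundant members by median FPKM over the 6 libraries were Isg15 at 389, Ifitm3 at 281, Irf7 at 167 and Bst2 at 119. The least abundant were Gbp2 at 4.36, Gbp3 at 2.60 and Ifi44 at 0.715. The members thus covered a wide range of levels and of spread, from Eif2ak2, Ifi35 and Adar, which varied under 2-fold over the libraries, to Ifit3, Ifi44 and Ifit2, which varied 99.0-fold, 71.6-fold and 64.8-fold. Members with a steeper gap between untreated libraries 3 and 1 also had a larger difference between CDs library 2 and untreated library 2, with a Pearson's r of 0.929 and a Spearman's rho of 0.930 across the 36 genes. Over all 12283 genes the values were 0.783 and 0.732. These are descriptions across genes, which share 4 libraries, their depth and their scaling, and are not independent replicates.

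**Figure D3:**
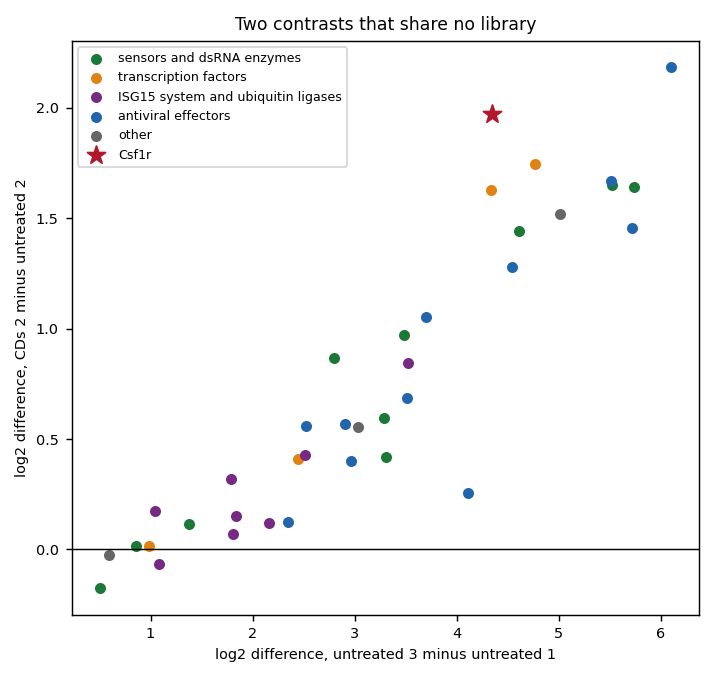
Log2 difference of CDs library 2 from untreated library 2 (vertical axis) against that of untreated library 3 from untreated library 1 (horizontal axis), 1 point per member, coloured by role, with Csf1r as a star. Members further right lie higher, with r = 0.929.

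Setting the members beside the macrophage markers in one fit gave the opposite sign. The mean log2 CPM of the 20 tested macrophage markers, centred over the libraries, served as a score, and was -1.30, 0.638 and 2.56 in CDs libraries 1, 2 and 3, and -2.63, -1.29 and 2.02 in untreated libraries 1, 2 and 3. It was higher in the CDs library of each pair. With this score as a covariate in edgeR, the log2 fold change was below 0 for 36 of the 36 members, against 47.7% of all genes. It was also below 0 for 8 of 10 granulocyte, 3 of 3 lymphocyte and 3 of 4 plasmacytoid dendritic cell markers tested. Of the erythroid, endothelial and hepatocyte markers tested, 2 of 12, 3 of 7 and 3 of 8 were below 0. The 20 macrophage markers make up the score, so the 11 of them below 0 are not an independent comparison. The median of the members was -0.45, between -1.07 for Rsad2 and -0.13 for Ifit3. By role, the median was -0.59 for the antiviral effectors, -0.42 for the ISG15 system, -0.40 for the transcription factors, -0.36 for the sensors and -0.27 for the remaining 3. An unadjusted p under 0.05 was found for 31 of the 36 members, against 949 of all 12283 genes.

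In that fit 3 members were called lower in CDs cells, where 0.228% of all genes were called lower and 0.285% higher. Gbp2 was lower by a log2 fold change of -0.83 ± 0.11 (SE, edgeR adjusted p = 0.0109, and 0.0109 to 1.00 over the alternatives). Oasl1 was lower by -0.64 ± 0.09 (edgeR adjusted p = 0.0209, and 0.0209 to 1.00 over the alternatives). Isg15 was lower by -0.65 ± 0.10 (edgeR adjusted p = 0.0283, and 0.0283 to 1.00 over the alternatives). The ranges cover this fit and the fits without the score, and leave out the variants of this fit given next. The 3 calls depended on single libraries. Without CDs library 1 there were 0 calls among the members, where 3 of 12601 genes were called. Without CDs library 3 there were 21, where 1.17% of all genes were called lower. In the fit without CDs library 3, the edgeR adjusted p was 0.00259 for Gbp2, 0.00129 for Oasl1 and 0.000417 for Isg15. Without untreated library 3 there were 6 calls among the members, where 59 of 12414 genes were called. Without untreated library 2 there were 2, where 69 of 12627 genes were called. The sign did not depend on single libraries, with 0 members above 0 and medians of -0.64 to -0.40 when any 1 of the 6 libraries was left out. With Csf1r alone as the covariate, 1 member was called, Gbp2 at -1.04 (edgeR adjusted p = 0.0363), and 0 members were above 0. That fit called 27 of 12283 genes. With the number as a block beside the score, 11 members were above 0, the median was -0.13, and 2 members were called, Irf1 at -0.92 (edgeR adjusted p = 0.0155) and Gbp2 at -0.84 (edgeR adjusted p = 0.0416). That fit called 51 of 12283 genes, 39 of them lower. Its terms left 1 degree of freedom for the spread of a gene over the 6 libraries, so its calls lean on spread shared across genes. The score was measured in the same libraries and was itself higher in CDs libraries, so the coefficient for treatment is conditional on it, and treatment and score cannot be fully told apart with 6 libraries.

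**Figure D4:**
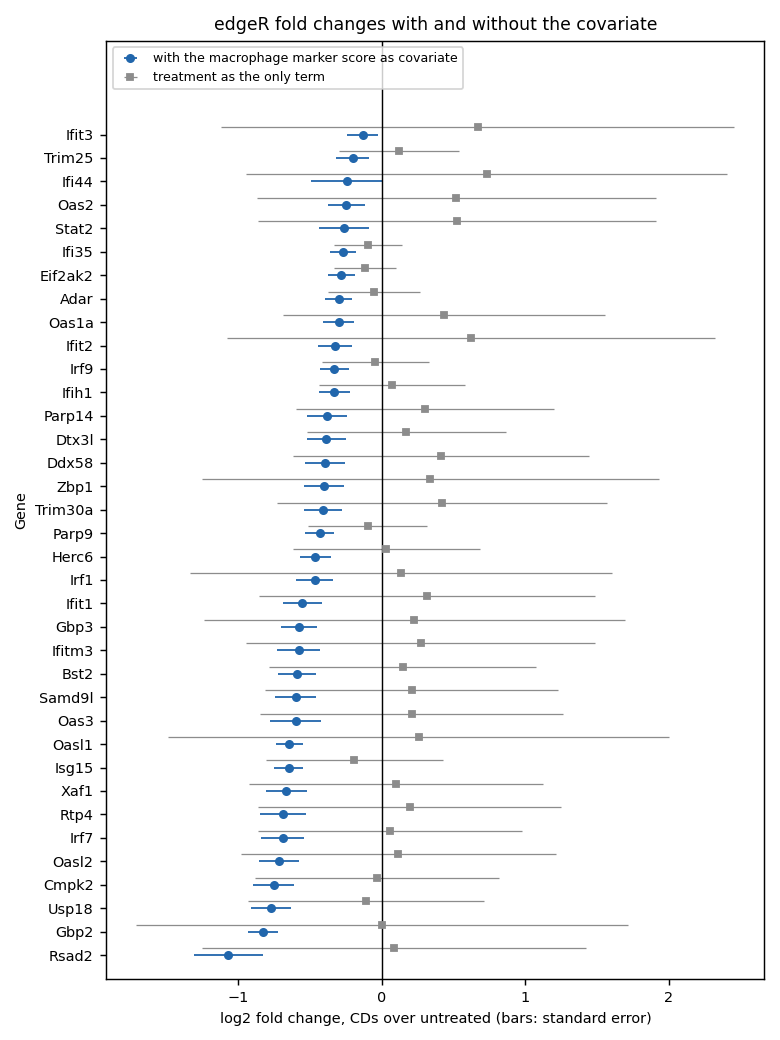
Log2 fold change, CDs over untreated, of each of the 36 members in edgeR with the macrophage score as a covariate and without it, with bars of 1 SE. With the score every member lies left of 0, between -1.07 and -0.13, while without it 28 lie right of 0 and the bars are far wider.

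One pair of libraries had nearly the same macrophage score, CDs library 1 and untreated library 2, and the members were lower in the CDs library. This contrast was picked after the values were seen, sets 1 library against 1 of another number, and has no test. All 36 members, and 27.9% of all genes, rose from number 1 to 2 to 3 in both groups. Number and treatment therefore cannot be told apart here, and the share over all genes given below is not a matched background. Csf1r had 82.5 CPM in CDs library 1 and 74.3 CPM in untreated library 2. All 36 members were lower in CDs library 1, as were 48.8% of all genes, with a median log2 difference of -0.65, between -1.80 for Rsad2 and -0.07 for Ifit3. Of the 20 macrophage markers 9 were lower, with a median of 0.04. That near-even split follows from choosing libraries with nearly equal means of these markers, so it is not an independent comparison. Of the 12 erythroid markers 5 were lower, with a median of 0.03. Granulocyte markers also differed, since 10 of 10 were lower, with a median of -1.33. The 7 tested endothelial markers differed the other way, with 2 lower and a median of 1.05. The part of these cell types in the difference was not tested.

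**Figure D5:**
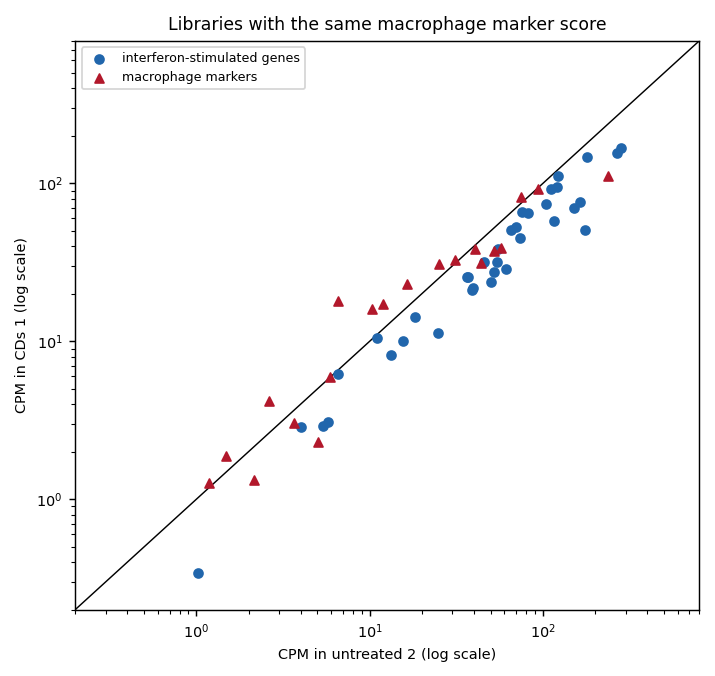
CPM in CDs library 1 (vertical, log scale) against CPM in untreated library 2 (horizontal, log scale), 1 point per gene, for the 36 members (circles) and the 20 tested macrophage markers (triangles), with the line of equality. Every member lies below the line, and 9 of the 20 macrophage markers do. These libraries were chosen for their nearly equal score, which is the mean of those markers. They also differ in number, and every member rose with the number in both groups.

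Interferon genes themselves were almost without reads. Of 15 listed ligands 3 were in the table and 0 passed the filter. Ifnb1, which encodes interferon beta, had 4 counts in untreated library 3 and 0 in the other 5 libraries. The other interferon genes in the table, Ifnz, Ifnk, Ifna6 and Ifna16, had at most 1 count in any library.

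The receptors and proximal kinases were all measured, and 0 of the 11 passed in edgeR without the block, although 11 of 11 had a log2 fold change above 0, with a median of 0.36. Ifnar1, a chain of the type I interferon receptor, had 76.7, 103 and 186 CPM in CDs libraries 1, 2 and 3, and 64.3, 67.8 and 151 CPM in untreated libraries 1, 2 and 3. Its log2 fold change was 0.37 ± 0.49 (SE, edgeR adjusted p = 0.994). DESeq2 with the block called 4 of the 11 higher, Ifnar1 among them (adjusted p = 0.0316), where edgeR with the block gave Ifnar1 an adjusted p of 0.0917 and called 0 of the 11. Over all genes, DESeq2 with the block called 7.76% higher and 2.09% lower. The kinase genes Jak1 and Jak2 had log2 fold changes of 0.19 ± 0.28 and 0.09 ± 0.12, and Ifnlr1, the receptor of interferon lambda, was near the limit of detection at up to 1.69 CPM in CDs libraries and up to 1.27 CPM in untreated libraries. Among the 18 tested genes of nucleic acid sensing, 16 were above 0 with a median of 0.45, and DESeq2 with the block called 9 higher and 0 lower. Tlr8, an endosomal receptor of single-stranded RNA, had 6.81, 25.3 and 107 CPM in CDs libraries, against 3.05, 7.01 and 60.0 CPM in untreated libraries. Tlr3, the endosomal receptor of double-stranded RNA, had 1.37, 4.68 and 22.9 CPM in CDs libraries, against 0.362, 0.870 and 12.7 CPM in untreated libraries. Both were higher in the CDs library of every pair, and DESeq2 with the block gave adjusted p = 1.51e-05 for Tlr8 and adjusted p = 0.00274 for Tlr3. edgeR with the block gave adjusted p = 0.0928 for Tlr8 and adjusted p = 0.101 for Tlr3, and called 0 of the 18. Cgas, the cytosolic DNA sensor, had a log2 fold change of 0.43 ± 0.65, and the adaptor Ticam1 one of 0.16 ± 0.25. With the macrophage score as covariate, 7 of the 11 receptors and kinases and 11 of the 18 sensing genes were below 0, with medians of -0.08 and -0.06, and 0 were called.

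Of 43 other interferon-stimulated genes tested, 35 were above 0 with a median of 0.36, and with the score 40 were below 0 with a median of -0.33. DESeq2 with the block, which called 7.76% of all genes higher and 2.09% lower, called 18 of the 43 higher and 1 lower. In edgeR with the block, 0 of the 43 were called. The gene called lower, Ifi27, was lower in the CDs library of every pair, with 34.6, 42.4 and 33.1 CPM in CDs libraries and 47.3, 53.2 and 43.1 CPM in untreated libraries. Its groups did not overlap, its log2 fold change was -0.38 ± 0.15 with an edgeR adjusted p of 0.994, and DESeq2 with the block gave an adjusted p of 0.0185, where edgeR with the block gave 0.0916. Pml, which forms nuclear bodies, had 259, 282 and 311 CPM in CDs libraries and 297, 324 and 358 CPM in untreated libraries. Uba7, the activating enzyme of ISG15, had a log2 fold change of -0.16 ± 0.20, and Pnpt1, a mitochondrial ribonuclease, one of -0.17 ± 0.10. The 15 genes induced by interferon gamma had a median of 0.02, with 9 above 0, and with the score all 15 were below 0 with a median of -0.66. Of these, Igtp at -0.66 (edgeR adjusted p = 0.0457) and Tgtp2 at -1.20 (edgeR adjusted p = 0.0461) were called. Gbp9 and Irgm2, GTPases of this family, had log2 fold changes without the score of 0.72 ± 1.46 and 0.24 ± 0.93. Irf8, a transcription factor of myeloid cells, had 7.50, 29.7 and 96.1 CPM in CDs libraries and 3.82, 8.85 and 84.4 CPM in untreated libraries. Tgtp1, a near copy of Tgtp2, was at 0 in CDs libraries 1 and 2 and at 3.66 CPM in CDs library 3, against 0.930, 0.307 and 11.2 CPM in untreated libraries 1, 2 and 3. DESeq2 with the block called 2 of the 15 higher and 1, Tgtp1, lower. The 16 genes of MHC class I presentation had a median of 0.18, with 14 above 0 and 3 called higher by DESeq2 with the block, and with the score all 16 were below 0 with a median of -0.47. Tap1, the peptide transporter, was called in that fit at -0.66 (edgeR adjusted p = 0.0294). Tapbp, Psmb8, Erap1 and H2-Q4 had log2 fold changes without the score of 0.19 ± 0.65, 0.40 ± 1.46, 0.19 ± 0.43 and 0.40 ± 1.54. The 13 negative regulators had a median of 0.04, with 7 above 0 and 2 called higher by DESeq2 with the block, and with the score 12 were below 0. Isg20, an exonuclease on that list, was called with the score at -0.75 ± 0.12 (edgeR adjusted p = 0.0307). Ptpn2 and Ptpn11, phosphatases of the pathway, had log2 fold changes of -0.12 ± 0.10 and 0.11 ± 0.14, and the ribonuclease H2 subunits Rnaseh2b and Rnaseh2c had -0.25 ± 0.29 and -0.24 ± 0.29.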

How the data were processed

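Libraries of oligo(dT)-selected RNA gave single reads of 50 bases, and no step that keeps strand is named, per the labels' protocols. The submitters' processing notes list the build GRCm38.p6 and the tools RSEM 1.2.12, HISAT2 2.0.4, DESeq2 1.4.5 and Bowtie2 2.2.5, without roles. The authors deposited expected counts per gene, 30.1% of them not whole, which were rounded to whole numbers. The authors also deposited a second table, whose values behave as FPKM (reads scaled by gene length and library total). Over 8317 genes, 28 members among them, the 2 tables differed by a median root mean square of 0.00537 on the log2 scale, and no member lay above the 99th percentile.

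The test was edgeR 4.0.16's robust quasi-likelihood test in R 4.3.3, after filterByExpr and TMM scaling, with Benjamini-Hochberg adjustment over 12283 genes. Pair differences are of log2(CPM + 0.1). The SE given for an edgeR fit is the absolute log2 fold change divided by the square root of the test's F statistic. DESeq2 1.42.0, limma 3.58.1, other scalings, filters and covariates were alternatives, and the code was tested on simulated data. Ranges of adjusted p over the alternatives leave out the variants of the fit with the score. Each library held 17695997 to 20066581 expected counts. The deviations of same-numbered libraries from their group means correlated at 0.91, 0.344 and 0.938 for numbers 1, 2 and 3, all over 0.1. Same-numbered libraries were therefore also compared as pairs and with the number as a block. The labels do not say what a number shares, and these correlations do not show it, so the main test had no block. Members with a mean of at least 5 CPM are given singly, and from each other list at most the 4 genes with the smallest unadjusted p, plus those called with the score. The members, lists and tests were chosen with earlier results of these data known. Promoter windows are RefSeq's.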

Additional observations from a re-analysis of the deposited data

How the results depend on the processing

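With the library number as a replicate block, edgeR called 5 genes and 0 members, limma-voom 6 genes and 0 members, and DESeq2 1210 genes and 7 members, where the test without the block called 0 genes and 0 members. DESeq2 without the block called 14 genes and 0 members. DESeq2's size factors in edgeR, no filter on low counts, and the FPKM values with pseudocounts of 1 and 0.1 called 0 members and left 27 or 28 of them above 0. Gbp2, near 0 in the fit as reported, was at -0.0071 with DESeq2's size factors, -0.0074 in DESeq2 and -0.0061 with no filter.

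The macrophage score as a covariate gave 63 genes and 3 members called, with 0 members above 0. The 28 members that turned sign there were Ifit1 -0.55, Ifit2 -0.32, Ifit3 -0.13, Ifih1 -0.33, Ddx58 -0.40, Oas1a -0.30, Oas2 -0.25, Oas3 -0.60, Oasl1 -0.64, Oasl2 -0.71, Rsad2 -1.07, Stat2 -0.26, Irf1 -0.47, Irf7 -0.69, Ifi44 -0.24, Ifitm3 -0.58, Bst2 -0.59, Trim25 -0.20, Trim30a -0.41, Xaf1 -0.67, Parp14 -0.38, Dtx3l -0.39, Gbp2 -0.83, Gbp3 -0.58, Zbp1 -0.40, Rtp4 -0.69, Samd9l -0.60 and Herc6 -0.46, as log2 fold changes. Alternatives to that fit were chosen after seeing the data. Csf1r alone as the covariate called 27 genes and 1 member, and the score with the replicate block left 11 members above 0. Leaving out 1 library from the fit with the score gave 3 to 285 genes and 0 to 21 members called. The causes of these differences were not tested.

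Leaving out 1 library, or both of one number, from the fit without the score moved the number of members above 0 between 0 and 36 and called 0 members each time. An arm of 2 libraries then rests on the spread pooled over both groups. The lowest and highest log2 fold changes over these fits were Isg15 -0.69 to 0.48, Ifit1 -0.92 to 1.85, Ifit2 -1.34 to 3.58, Ifit3 -1.22 to 4.02, Ifih1 -0.42 to 0.57, Ddx58 -0.68 to 1.72, Oas1a -0.63 to 1.96, Oas2 -0.74 to 2.66 and Oas3 -0.80 to 1.44. They were Oasl1 -1.65 to 3.44, Oasl2 -0.94 to 1.51, Rsad2 -1.42 to 1.72, Stat2 -0.66 to 2.62, Irf1 -1.16 to 2.85, Irf7 -0.92 to 1.15, Irf9 -0.37 to 0.31, Ifi44 -1.08 to 3.29 and Ifi35 -0.28 to 0.11. For the next members they were Ifitm3 -0.82 to 1.95, Usp18 -0.98 to 0.82, Bst2 -0.81 to 1.28, Eif2ak2 -0.31 to 0.030, Trim25 -0.27 to 0.51, Trim30a -0.72 to 1.91, Adar -0.32 to 0.23, Xaf1 -0.85 to 1.35 and Parp9 -0.48 to 0.27. For the last they were Parp14 -0.68 to 1.37, Dtx3l -0.55 to 0.91, Gbp2 -1.75 to 3.13, Gbp3 -1.31 to 2.70, Zbp1 -1.12 to 3.08, Rtp4 -0.91 to 1.46, Cmpk2 -0.91 to 0.88, Samd9l -0.87 to 1.42 and Herc6 -0.59 to 0.74. The spread between library numbers limits what the test without the block can show at 3 libraries a group.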
